A study of Mus musculus with 2 samples.

Results

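Basement membranes are thin sheets of extracellular matrix that lie beneath endothelium and wrap each heart muscle cell, smooth muscle cell and pericyte. Their core is made of a network of laminins, cross-shaped trimers of an alpha, a beta and a gamma chain, and a network of type IV collagen, joined by nidogen and by the proteoglycan perlecan. In the heart these sheets anchor muscle cells through integrins and dystroglycan and support the capillary wall.

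The genes described here are 10 components of that matrix, chosen by name: Col4a1, Col4a2, Col15a1, Lamb1, Lamc1, Nid1, Sparc, Hspg2, Lama2 and Lama4. A gene was taken as measured where a probe carried its symbol, or an older synonym of it, in the platform annotation, and where several did the brightest was used. This gave 9 of the 10 among 16390 genes with a probe. No probe here carried Lamb1 or one of its synonyms, so Lamb1, the beta chain that partners the gamma chain of Lamc1, was not analysed here. Col15a1 had 2 probes and the other members 1 each, so every value below is that of a single spot on each array. In GRCm38.p6 the genes lie on chromosomes 8 (Col4a1 and Col4a2), 4 (Col15a1 and Hspg2), 1 (Lamc1), 13 (Nid1), 11 (Sparc) and 10 (Lama2 and Lama4).

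RNA from whole hearts of male mice on a C57BL/6J background, 6 months old, was measured on 2 two-colour oligonucleotide arrays. One array held a heart without Sirt1, an NAD-dependent deacetylase, in its cardiomyocytes after 3 months of caloric restriction (CR, intake cut by 40%) and a heart of the same genotype after free feeding (ad libitum, AL), and the other array held the same diets in control hearts. The CR heart carried Cy3 and the AL heart Cy5 on both arrays, so diet and dye cannot be told apart within an array, nor genotype and array between them. The sources used here do not give the driver of the cardiomyocyte deletion or the exact genotype of the controls. Each condition was measured in 1 heart, so no value has a replicate error, no p-value is given, and precision is limited by having a single array per genotype.

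Levels are log2 signals after background correction and normalization, and a response is the log2 CR over AL difference within an array. A gene was called lower or higher where it differed by at least 1.5-fold. A spot was detected where it exceeded the mean of the array's 2736 blank spots by 2 SD, and all 9 members were detected in all 4 hearts. The probe for Sirt1 itself read 7.51 in the knockout CR heart, 7.07 in the knockout AL heart, 7.53 in the control CR heart and 7.11 in the control AL heart. The knockout over control difference for Sirt1 was thus -0.02 under CR and -0.04 under AL. Where the probe lies relative to the deleted part is not known here and other cells of the heart keep the gene, so the deletion is not checked by this probe. Of 11 cardiomyocyte markers 10 were detected in all 4 hearts, and the probe for Tcap was detected in both CR hearts only. Of 7 atrial markers, 2 were far lower in the knockout hearts. Myl7, an atrial myosin light chain, read 6.26 and 6.31 in the knockout CR and AL hearts and 10.32 and 10.26 in the control CR and AL hearts. Myl4, another atrial light chain, differed between knockout and control hearts by -2.71 under CR and -2.47 under AL. Nppa, the atrial natriuretic peptide, differed by 1.95 under CR and 0.99 under AL, so it was higher in the knockout hearts. Tbx5, Nr2f2 and Bmp10 lay between -0.06 and 0.29, Sln was near the detection limit, and the list medians were 0.03 under CR and -0.0048 under AL.

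Col4a1 and Col4a2 encode the chains that assemble into the common type IV collagen trimer, and they lie head to head on chromosome 8. Their promoter windows, which run from 250 bases before to 50 bases after the start site in the RefSeq table of GRCm38.p6, are shown because both chains of the trimer are read from this one stretch, in opposite directions. The windows are chr8:11312777-11313076 on the minus strand for Col4a1 and chr8:11312555-11312854 on the plus strand for Col4a2. The capitals mark the 78 bases that both windows hold, each read on its own gene's strand, 5′ to 3′, and the start sites in the table lie 21 bases apart. The promoter of Nid1 (chr13:13437352-13437651, plus strand) is shown beside them as that of another member past 1.5-fold in the knockout hearts, with its motif matches in capitals.
Col4a1: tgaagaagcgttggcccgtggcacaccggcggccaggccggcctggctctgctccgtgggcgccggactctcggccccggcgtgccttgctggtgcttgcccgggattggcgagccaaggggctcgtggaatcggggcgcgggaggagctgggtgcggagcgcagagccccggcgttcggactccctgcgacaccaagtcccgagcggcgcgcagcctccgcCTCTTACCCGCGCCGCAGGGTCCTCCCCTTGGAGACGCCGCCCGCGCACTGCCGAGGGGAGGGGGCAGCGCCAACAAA
Col4a2: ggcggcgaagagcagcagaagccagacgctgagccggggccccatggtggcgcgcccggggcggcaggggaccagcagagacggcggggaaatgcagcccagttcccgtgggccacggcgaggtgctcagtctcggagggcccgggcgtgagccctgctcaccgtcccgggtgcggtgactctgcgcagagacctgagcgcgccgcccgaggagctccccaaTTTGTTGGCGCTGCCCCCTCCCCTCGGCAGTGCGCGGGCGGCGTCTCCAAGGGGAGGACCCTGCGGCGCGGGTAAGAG
Nid1: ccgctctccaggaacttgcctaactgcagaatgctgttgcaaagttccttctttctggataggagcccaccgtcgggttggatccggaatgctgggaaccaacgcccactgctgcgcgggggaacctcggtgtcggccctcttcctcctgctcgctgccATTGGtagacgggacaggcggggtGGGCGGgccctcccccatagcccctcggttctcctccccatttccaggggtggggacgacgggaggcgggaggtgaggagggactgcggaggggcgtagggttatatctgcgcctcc

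The promoter table held 8 of the 10 members, and Lamc1 and Lama4 were not matched. The GC box GGGCGG, the CCAAT box CCAAT and the TATA box TATAAA were searched on both strands in all 32851 windows of the table. Their letters can overlap, but no matches in the windows of these genes did. The GC box was in 35.7% of all windows, and among the members it was in those of Hspg2 (5 matches), Col4a2 (3), Lamb1 (2), Col4a1, Lama2 and Nid1 (1 each). The CCAAT box was in 37.4% of all windows and in those of Col4a1, Col4a2, Lamb1 and Nid1. The TATA box was in 13.6% of all windows and in none of these 8. The share of G and C was 74.0% for Col4a1, 73.7% for Col4a2 and 64.7% for Nid1, against a median of 52.7% over the table. Sparc (55.3%) and Col15a1 (52.3%) held none of the motifs in this window.

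In the knockout hearts 4 of the 9 members were at least 1.5-fold lower with CR: Col4a2, Sparc, Nid1 and Lamc1. Of all 12144 genes compared on that array 0.758% were so, and 0.774% were at least 1.5-fold higher, with no member among them. The members were chosen with earlier results of these data known, so the shares over all genes give a scale and no test of the set. The members' median response was -0.47, against a median of 0.00031 over all genes, and 7 of 9 were below 0, against 49.9% of all genes. That median was the value of Col15a1. The 4 members past 1.5-fold lay below it, and Col4a1, Hspg2, Lama2 and Lama4 lay between -0.05 and 0.04. In the control hearts no member passed 1.5-fold in either direction, where 0.34% of 12659 genes were lower and 0.822% higher. The control median, the value of Lama2, was -0.19, with 8 of 9 members below 0, against a median of 0.0042 and 48.6% below 0 over all genes. In bulk tissue, fewer cells of a type and less RNA per cell cannot be told apart.

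The 9 members split by brightness. The 4 that passed 1.5-fold were those with a mean log2 signal over 6.5, whereas the other 5 lay between 6.03 and 6.41, near the lowest detected signals. Large responses were rarer among dim genes as a whole. At a mean log2 signal under 6.5, 0.11% of 4541 genes were at least 1.5-fold lower in the knockout hearts, from 6.5 to 8 it was 0.652% of 4450 genes, and at 8 or above 2.14% of 2710. Of the 9 members, 5, 2 and 2 fell into these ranges. The number added before logs are taken compresses dim signals, so the responses near 0 of Col4a1, Hspg2, Lama2 and Lama4 do not show that their RNA was alike between the diets. Col15a1, the other dim member, was at -0.47 in knockout hearts, the 173rd lowest of 12144 genes.

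**Figure D1:**
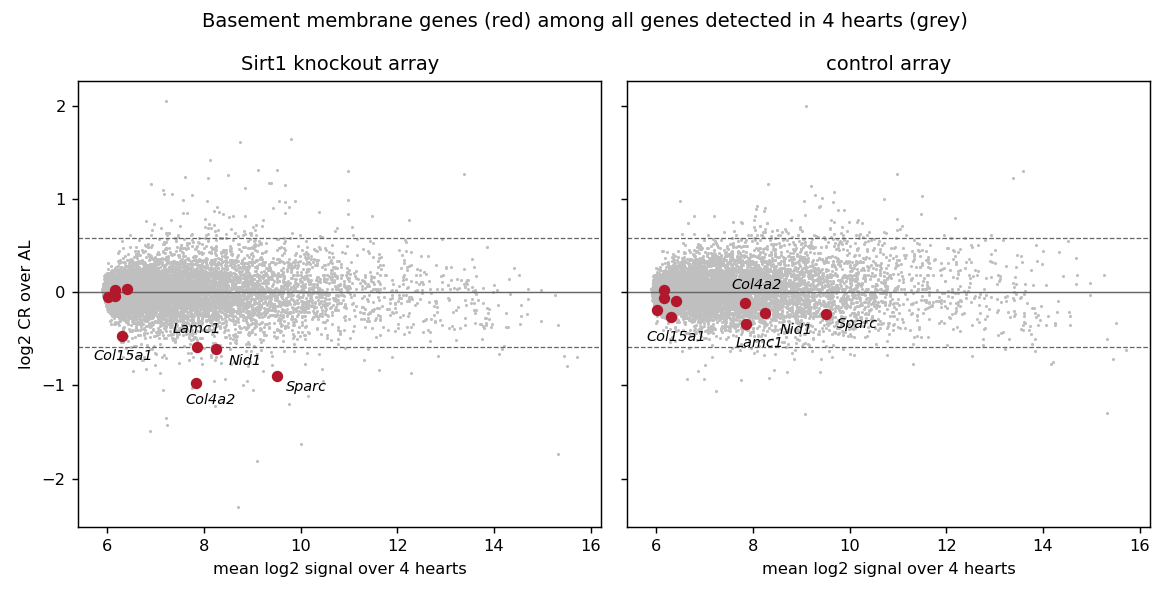
Response (log2 CR over AL) against the mean log2 signal over the 4 hearts, for the Sirt1 knockout array (left) and the control array (right). Grey points are the 11701 genes detected in all hearts, red points the 9 basement membrane genes, and dashed lines mark 1.5-fold. On the knockout array Col4a2, Sparc, Nid1 and Lamc1 lie at or below the lower dashed line, whereas on the control array no red point reaches it.

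Among the type IV collagen chains, Col4a2 read 7.61 in the knockout CR heart and 8.57 in the knockout AL heart, against 7.56 in the control CR heart and 7.68 in the control AL heart. The knockout AL heart stood above the other hearts, which lay within 0.12 of each other. The response was -0.97 in knockout hearts, the 15th lowest of 12144 genes, and -0.12 in control hearts. In scanner units above the blank mean, the Col4a2 spot held 141 and 307 in the knockout CR and AL hearts and 154 and 139 in the control CR and AL hearts.

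Its partner chain Col4a1, which shares its promoter, read 6.17 and 6.21 in the knockout CR and AL hearts and 6.11 and 6.17 in the control CR and AL hearts. The 4 hearts were alike within 0.1. Its spot, however, stood only 16.6 and 16.8 scanner units above the blank mean in the knockout CR and AL hearts and 16.4 and 14.9 in the control hearts. The responses of -0.04 and -0.06 in knockout and control hearts therefore rest on a signal near the detection limit, and the values of the partner chains could not be compared at this brightness. The other chains of the family with a probe, Col4a5 and Col4a6, had responses of -0.03 and 0.08 in knockout hearts and of -0.11 and 0.00073 in control hearts.

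Col15a1 encodes the core of a collagen and proteoglycan hybrid that links the basement membrane to the collagen fibrils beside it. Its brighter probe read 6.17 and 6.64 in the knockout CR and AL hearts and 6.09 and 6.37 in the control CR and AL hearts, with responses of -0.47 in knockout and -0.27 in control hearts. Both AL hearts were above both CR hearts. The dimmer probe had responses of -0.10 in knockout and -0.01 in control hearts and was not detected in the knockout CR heart.

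Among the laminin chains, Lamc1, the gamma chain found in most laminins, read 7.69 in the knockout CR heart and 8.27 in the knockout AL heart, against 7.60 and 7.94 in the control CR and AL hearts. Both AL hearts were above both CR hearts. The response was -0.59 in knockout hearts, just past 1.5-fold, and -0.34 in control hearts. It was at -0.55 in knockout hearts, short of 1.5-fold, with loess run within each block of the array. Lama2 encodes the alpha chain of the laminin around muscle fibres, whose loss causes a muscular dystrophy in mice and people. It read 6.02 and 6.07 in the knockout CR and AL hearts and 5.93 and 6.11 in the control CR and AL hearts. Lama4, the alpha chain typical of vessel walls, read 6.38 and 6.34 in the knockout CR and AL hearts and 6.42 and 6.51 in the control CR and AL hearts. Their responses were -0.05 and 0.04 in knockout hearts and -0.19 and -0.09 in control hearts. The Lama2 spot stood 9.61 and 10.3 scanner units above the blank mean in the knockout CR and AL hearts and 7.15 and 12.4 in the control CR and AL hearts, the dimmest of the 9 in the CR hearts.

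Of the linking proteins, Nid1 (nidogen, which ties laminin to type IV collagen) read 8.29 in the knockout CR heart and 8.90 in the knockout AL heart, against 7.80 and 8.03 in the control CR and AL hearts. Both knockout hearts were above both control hearts. The response was -0.61 in knockout hearts and -0.22 in control hearts. Hspg2, the core protein of perlecan, read 6.28 and 6.26 in the knockout CR and AL hearts and 6.05 and 6.03 in the control CR and AL hearts. Its diets were within 0.03 of each other in both genotypes, and the knockout hearts were higher by 0.24 under CR and 0.23 under AL, from spots 8.7 to 22.5 scanner units above the blank mean.

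Sparc encodes a secreted glycoprotein that binds type IV collagen and other collagens and takes part in their deposition. It read 9.26 in the knockout CR heart and 10.15 in the knockout AL heart, against 9.19 in the control CR heart and 9.42 in the control AL heart. As for Col4a2, the knockout AL heart stood above the other hearts, here by at least 0.74. The response was -0.90 in knockout hearts, the 20th lowest of 12144 genes, and -0.23 in control hearts.

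**Figure D2:**
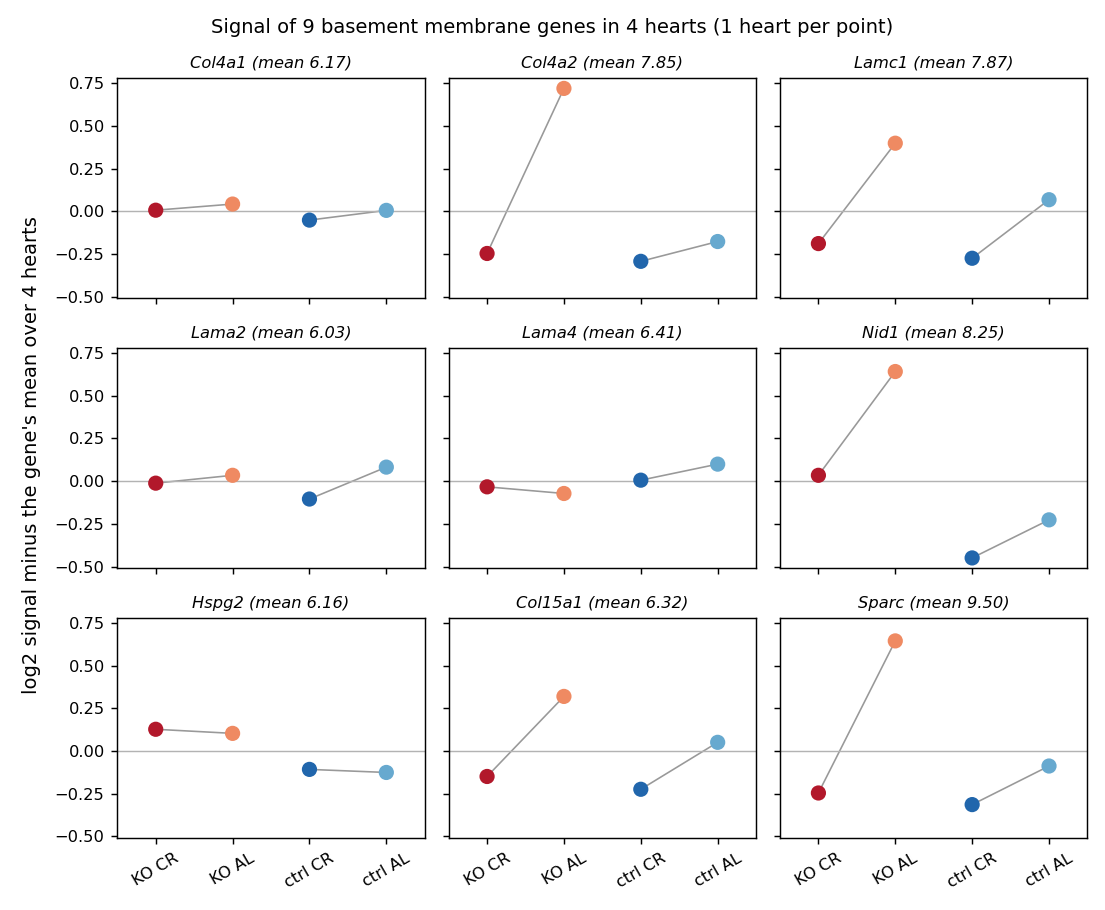
Log2 signal of each of the 9 genes in the 4 hearts, minus the gene's own mean over them (the mean is given above each panel). Each point is 1 heart, in the order knockout CR, knockout AL, control CR and control AL, and grey lines join the hearts of an array. Col4a2, Sparc, Nid1, Lamc1 and Col15a1 share a high point in the knockout AL heart, whereas Col4a1, Lama2, Lama4 and Hspg2 span less than 0.3.

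The knockout AL heart was the highest of the 4 for 6 of 9 members (Col4a1, Col4a2, Col15a1, Lamc1, Nid1 and Sparc), and the control CR heart the lowest for 7. Over 11701 genes the knockout AL heart was the highest for 24.5% and the control CR heart the lowest for 22.9%. The lead of the knockout AL heart was 0.04 for Col4a1, whose spot was near the detection limit, and 0.27 or more for the other five. Between the genotypes under AL, 3 members were at least 1.5-fold higher in the knockout heart: Col4a2 by 0.90, Nid1 by 0.87 and Sparc by 0.74. This was so for 2.6% of 12786 genes. Lamc1 and Col15a1 were higher by 0.33 and 0.27, and the members' median was 0.27 (0.0085 over all genes). Under CR 7 of 9 members differed between the genotypes by less than 0.1, with Nid1 at 0.48 and Hspg2 at 0.24 the exceptions. The median was 0.08. Among the 7 were the dim members Col4a1, Col15a1, Lama2 and Lama4, whose small differences do not show that their RNA was alike. Of all 11960 genes, not matched for brightness, 45.9% differed by less than 0.1. No member passed 1.5-fold under CR, where 1.45% of genes were higher. With the local background subtracted, Col4a2 (0.72) and Sparc (1.79) were past 1.5-fold under CR, as were 11.2% of genes. The Sparc value there rests on a control spot dimmer than its surroundings. The comparisons share hearts with the responses above, so they restate the same 4 levels and are no separate evidence.

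The knockout response minus the control response cancels any effect of the dyes that both arrays share. This difference was -0.85 for Col4a2 and -0.67 for Sparc, both past 1.5-fold, as 0.521% of 11701 genes were in that direction. It was -0.38 for Nid1, -0.25 for Lamc1 and -0.19 for Col15a1. The 4 remaining members lay between 0.01 and 0.14, with no member past 1.5-fold upward (0.393% of all genes). The median was -0.19, against -0.0030 over all genes.

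Control spots on the arrays give a scale for spot noise and for shifts that are not of these genes. The positive controls, 24 spots each of a pair of sequences, had SDs of the response of at most 0.088 on the knockout array and 0.058 on the control array. Their means, however, were not at 0. Positive control 2, at a log2 signal of 10.01 and 10.79 in the knockout CR and AL hearts, had a mean response of -0.78 on the knockout array and -0.09 on the control array, a difference of -0.68. Positive control 3 was at -0.26 on the knockout array and -0.44 on the control array, a difference of 0.18. Shifts of the size seen for Sparc thus occurred in a control sequence of similar brightness, and their part in the members' values was not tested.

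Local brightness mattered most for Sparc. The median brightness around the Sparc spot was 79.0% and 84.9% of the spot's own in the knockout CR and AL hearts and 109% and 104% in the control CR and AL hearts. Over detected probes this share had medians from 66.8% to 84.3% in the 4 channels. With the local background subtracted, the Sparc response was -0.22 in knockout hearts and 0.04 in control hearts, and its knockout over control difference was 1.79 under CR and 2.05 under AL. Col4a2 was then at -0.74 and -0.12 in knockout and control hearts, Nid1 at -0.73 in knockout and -0.12 in control hearts, and Lamc1 at -0.70 in knockout and -0.28 in control hearts. So 3 members were past 1.5-fold lower on the knockout array in that setting (1.43% of all genes), and the pair past it in the knockout minus control response became Col4a2 (-0.63) and Nid1 (-0.61) in place of Col4a2 and Sparc (2.2% of all genes). With each array centred on its median in place of loess, the intensity-dependent correction, 2 members passed on the knockout array (0.651% of all genes). Lamc1 and Nid1, both at -0.58, then fell just short.

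In the authors' deposited table of log2 ratios, which adds no number before logs are taken, Col15a1 moved most in knockout hearts and Lama2 most in control hearts. Col15a1 was at -1.50 in knockout and -1.02 in control hearts in the authors' deposited table, and Lama2 at -0.25 in knockout and -1.16 in control hearts. The difference of responses of Lama2 was then 0.91, from the spot with the fewest scanner units above the blanks in the CR hearts. In the same table Col4a2 was at -1.26 and -0.21 and Sparc at -0.96 and -0.33, in knockout and control hearts.

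**Figure D3:**
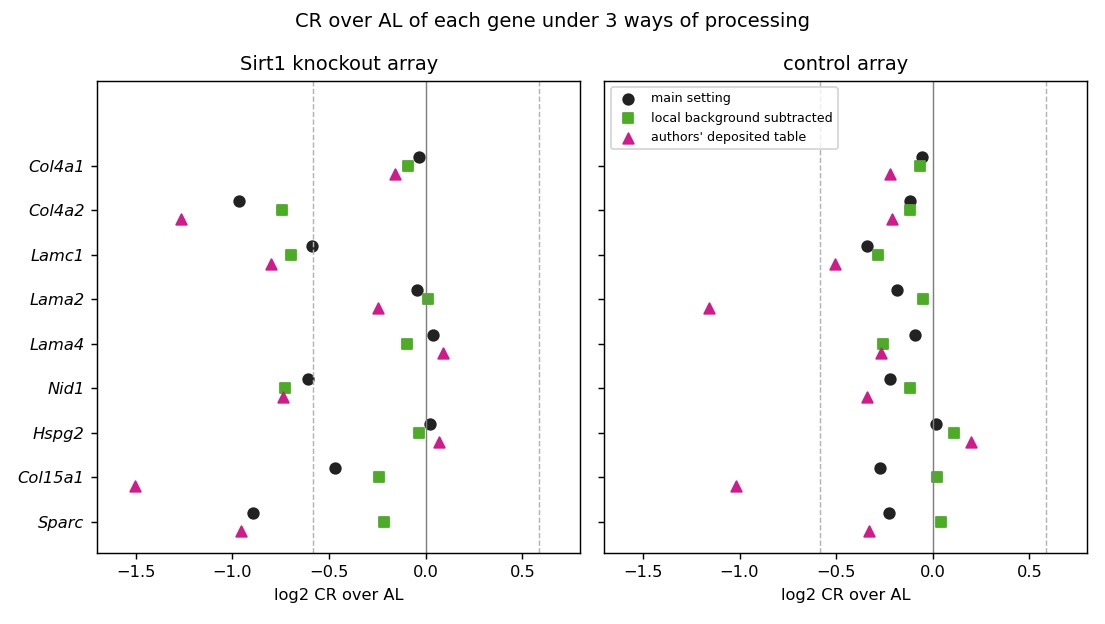
Response (log2 CR over AL) of each of the 9 genes on the Sirt1 knockout array (left) and the control array (right). Circles are the main setting, squares the setting with the local background subtracted and triangles the authors' deposited table, with dashed lines at 1.5-fold. On the knockout array Col4a2, Lamc1 and Nid1 stay left of the lower dashed line in all 3, whereas Sparc moves to -0.22 with the local background subtracted and Col15a1 to -1.50 in the deposited table.

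Other chains and components of the basement membrane were measured beside the 9 members, and they mostly lay nearer 0 on the knockout array. Many were as dim as the dim members: Lama1, Lama3, Col4a6, Agrn, Fbln2, Ntn4, Tinagl1 and Papln read under 6.5 in all 4 hearts. Their values near 0 do not show that their RNA was alike between the diets. Of 5 further laminin chains compared, 1 was below 0 (median 0.08). Lamb3, the beta chain of an epithelial laminin, was higher with CR by 0.85 in knockout hearts and by 0.14 in control hearts. It read 7.93 and 7.08 in the knockout CR and AL hearts and 7.86 and 7.72 in the control CR and AL hearts, so the knockout AL heart was the low one. Lamb2, the beta chain of mature muscle and vessel laminins, was at 0.31 on both arrays, and Lama1, Lama3 and Lama5 lay between -0.04 and 0.08 in knockout hearts. Lamc3 was detected in the control AL heart only and near the limit.

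Of 10 other basement membrane components compared on the knockout array, 6 were below 0 and none past 1.5-fold (median -0.02). Fbln1, a fibulin that binds laminin and nidogen, was at -0.33 in knockout and -0.60 in control hearts. It was the one component past 1.5-fold in control hearts, where 0.34% of all genes were lower. With the local background subtracted Fbln1 was at 0.02 in knockout and -0.18 in control hearts. The matricellular Smoc2 was at -0.26 in knockout and 0.05 in control hearts, its relative Smoc1 at 0.18 in knockout and 0.05 in control hearts, and the netrin Ntn4 at 0.22 in knockout and 0.13 in control hearts. Sparcl1, a close relative of Sparc, was at -0.09 in knockout and 0.38 in control hearts. It read 10.13 and 10.22 in the knockout CR and AL hearts and 9.43 and 9.05 in the control CR and AL hearts, so both knockout hearts were the higher ones. Npnt was detected in both AL hearts only, near the limit, and no fold is given.

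Receptors of these matrices showed no common direction. Of 11 compared on the knockout array 5 were below 0 and none passed 1.5-fold (median 0.01), and of 10 on the control array 4 were below 0 (median 0.02). Itga1 and Itga2, integrin chains that bind collagen, were near the limit: Itga1 was not detected in the control CR heart, and Itga2 was detected in the knockout CR heart only. Itgb4 and Ddr1 read under 6.5 in every heart, so the counts of signs rest partly on dim spots. Itga6, an integrin chain that binds laminin, was at -0.47 in knockout and -0.28 in control hearts. Itga7, the laminin-binding integrin chain of muscle, was at -0.19 in knockout and -0.31 in control hearts. Dystroglycan (Dag1), the other laminin receptor of muscle, was at -0.26 in knockout and -0.17 in control hearts. The tetraspanin Cd151, the laminin receptor Bcam and the syndecan Sdc4 were at -0.14, 0.01 and 0.10 in knockout hearts and at 0.08, 0.31 and -0.20 in control hearts.

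Of 13 genes for collagen synthesis and secretion, 10 were below 0 in knockout hearts, none past 1.5-fold, with a median of -0.16, and 8 were in control hearts (median -0.02). Pxdn, the peroxidase that crosslinks type IV collagen, was at -0.32 in knockout and -0.25 in control hearts. P4hb, a subunit of the enzyme that hydroxylates collagen prolines, was at -0.26 in knockout and -0.15 in control hearts. The lysyl hydroxylases Plod3 and Plod1 were at -0.26 and -0.25 in knockout hearts and at 0.10 and -0.01 in control hearts.

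Of 8 proteases and inhibitors compared on the knockout array, 1 was at least 1.5-fold lower (0.758% of all genes) and 2 were higher (0.774%). Mmp2, a gelatinase that cuts type IV collagen, was lower with CR by -0.71 in knockout hearts and was at -0.39 in control hearts. It read 7.07 and 7.78 in the knockout CR and AL hearts and 6.84 and 7.24 in the control CR and AL hearts. The metalloprotease inhibitors Timp4 and Timp3 were higher with CR by 1.26 and 1.12 in knockout hearts, and by 0.67 and 0.36 in control hearts. Timp4 read 9.31 and 8.05 in the knockout CR and AL hearts and 8.69 and 8.02 in the control CR and AL hearts. Timp3 read 9.35 and 8.23 in the knockout CR and AL hearts and 9.10 and 8.74 in the control CR and AL hearts. The other inhibitors did not share that direction, with Timp1 at -0.34 in knockout and -0.18 in control hearts and Timp2 at -0.17 in knockout and 0.03 in control hearts. Mmp14, Mmp15 and Adamts1 lay between -0.11 and 0.05 in knockout hearts, and Mmp9 was detected in both AL hearts only, near the limit. With the local background subtracted Timp3, Timp4 and Mmp2 were at 1.04, 0.60 and -0.47 in knockout hearts and at 0.29, 0.10 and -0.10 in control hearts.

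Fibrillar collagens, which form the interstitial matrix and not the basement membrane, were highest in the knockout AL heart. All 5 were at least 1.5-fold lower with CR in knockout hearts (median -0.69), against 0.758% of all genes. In control hearts 1 was (median -0.21), against 0.34% of all genes. Col3a1, a fibrillar chain abundant in elastic tissue, read 7.37 and 9.67 in the knockout CR and AL hearts and 8.46 and 9.32 in the control CR and AL hearts, with responses of -2.30 in knockout and -0.86 in control hearts. Col1a2, Col1a1, Col5a2 and Col5a1 were at -0.76, -0.69, -0.69 and -0.66 in knockout hearts and at -0.26, -0.21, -0.21 and -0.13 in control hearts. For the knockout minus control response the median of these 5 was -0.50, against -0.19 for the 9 members. With the local background subtracted, Col3a1 (-1.64) and Col5a2 (-0.59) were still past 1.5-fold in knockout hearts, where 1.43% of all genes were lower. Col1a1 (-0.56), Col5a1 (-0.35) and Col1a2 (-0.02) were then not past it.

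On the knockout array the medians of marker lists of the cells that make or neighbour basement membranes lay nearer 0 than the members' median, the value of Col15a1. The lists are not matched for brightness. Among these markers Cdh5, Emcn, Cspg4, Notch3, Myh11, Cnn1, Pdgfrl, Adgre1 and Fcgr1 read under 6.5 in all 4 hearts. As for the dim members, their values near 0 do not show that their RNA was alike between the diets. Cardiomyocyte markers were below 0 in 4 of 10 in knockout hearts (median 0.06) and in 4 of 10 in control hearts (median 0.14). In knockout hearts 3 were at least 1.5-fold lower (0.758% of all genes), Myl3 (-0.77), Myl2 (-0.69) and Atp2a2 (-0.66), and none was higher. With the local background subtracted Atp2a2 was at 4.77. In control hearts 2 were lower (0.34%), Myl3 (-0.67) and Myl2 (-0.62), and 2 were higher (0.822%), Myh6 and Mybpc3. Endothelial markers were below 0 in 8 of 12 in knockout hearts (median -0.15, range -0.65 to 0.28) and in 6 of 12 in control hearts (median 0.00015). Egfl7 (-0.65) was at least 1.5-fold lower in knockout hearts (0.758% of all genes) and Cldn5 (-0.63) in control hearts (0.34%), and none was higher. The summed linear signal of the endothelial markers was 4126 and 4511 in the knockout CR and AL hearts and 3995 and 4161 in the control CR and AL hearts. Pericyte and smooth muscle markers were below 0 in 5 of 10 in knockout hearts (median 0.01) and in 2 of 10 in control hearts (median 0.05), with sums of 2956 and 2889 in the knockout CR and AL hearts and 2485 and 2254 in the control hearts. Fibroblast markers other than collagens were below 0 in 8 of 10 in knockout hearts (median -0.17) and in 7 of 10 in control hearts (median -0.15), with sums of 4052 and 4451 in the knockout CR and AL hearts, against 3551 and 4471 in the control CR and AL hearts. Of the fibroblast markers, Mfap5 (-0.71) was at least 1.5-fold lower in knockout hearts, and none was higher. Macrophage markers were below 0 in 9 of 10 in knockout hearts (median -0.31) and in 7 of 10 in control hearts (median -0.13). Their sum was 1817 and 2853 in the knockout CR and AL hearts and 1516 and 1848 in the control CR and AL hearts, led by the C1q chains C1qa, C1qb and C1qc at -0.79, -1.06 and -0.67 on the knockout array. Cd163 went the other way, at 0.43 in knockout and 0.28 in control hearts. Csf1r was at -0.19 in knockout and -0.28 in control hearts. The sum over the 9 members was 1696 and 2705 in the knockout CR and AL hearts and 1541 and 1776 in the control CR and AL hearts. Sparc alone gave 613 and 1140 of it in the knockout CR and AL hearts and 584 and 684 in the control CR and AL hearts. The Sparc response depended on the local background. Of the Schwann cell markers, 4 had a probe, and they lay between 0.01 and 0.06 in knockout hearts. All genes of the endothelial, pericyte, fibroblast and macrophage lists were detected in all 4 hearts, and the part of these cells in the members' values was not tested.

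**Figure D4:**
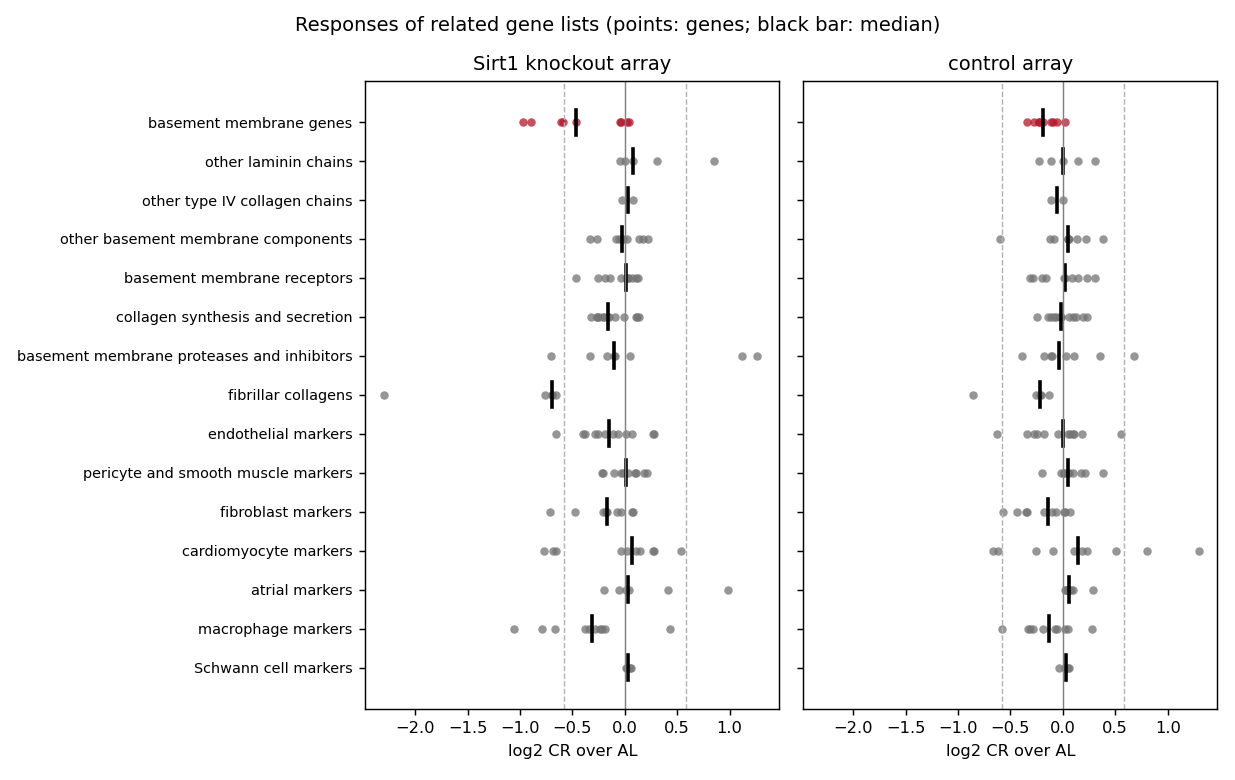
Response (log2 CR over AL) of each gene of the basement membrane set (red) and of related lists (grey) on the Sirt1 knockout array (left) and the control array (right). Each point is 1 gene in 1 pair of hearts, black bars are list medians and dashed lines mark 1.5-fold. On the knockout array the medians of the basement membrane set (-0.47), the fibrillar collagens (-0.69) and the macrophage markers (-0.31) lie furthest to the left of 0. The median of the basement membrane set is the value of Col15a1.

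To find genes with the same pattern, the 4 log2 signals of each gene were centred on their mean and set against the median of the 9 members, which was -0.03 in the knockout CR heart, 0.32 in the knockout AL heart, -0.22 in the control CR heart and 0.0044 in the control AL heart. Of 8710 other genes that were detected in all 4 hearts and at or above the median signal, the 6 nearest by Euclidean distance were Sdhd (0.038), Cux1 (0.042), Galm (0.045), Hspb8 (0.056), Islr (0.057) and Anxa2 (0.058). With 4 hearts many genes come close by this measure, and only Islr, a secreted protein of stromal cells, and Anxa2, an annexin of the cell surface, are known from the cell surroundings. Their responses were -0.32 and -0.39 in knockout hearts and -0.19 and -0.28 in control hearts.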

How the data were processed

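The scanner files hold intensity values, as medians within and around every spot in both dyes, which the authors deposited after tying scans at 3 gains together, per the file headers. The authors' deposited table holds normalized ratios on the log2 scale, CR on top, as the labels state. The scanner software is not given in the sources used here. Spot signals, without the local background, were corrected with normexp (offset 50) and normalized by loess within arrays and Aquantile between arrays with limma 3.58.1 in R 4.3.3. Controls and scanner-marked spots had weight 0 (1 and 2 probe spots so marked on the control and knockout array). Of 23473 probes, between 74.0% and 80.7% were detected per channel, after leaving out 5% of the blank spots at each end. Of them, 16631 carried 1 gene symbol and 6842 none, and symbols were updated through the GRCm38.p6 gene table (12622 current, 3947 through a synonym, 62 unmatched). The normalization was also run on simulated data with known changes. The simulated background had no local structure, so that run cannot speak to the shifts seen with the local background subtracted. Named genes of the other lists were the 4 with the largest knockout response and the 2 with the largest difference of responses, plus any detected in 1 condition only, and marker lists are given mostly as counts. The members and lists were chosen with earlier results of these data known. Alternatives were the local background, the offset, no background correction, median centring, loess by block, median scaling, no detection filter, the mean over probes and the deposited ratios.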

Additional observations from a re-analysis of the deposited data

Results flagged for a closer look

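For several genes the response had opposite signs on the array of each genotype. With 1 array per genotype this difference was not tested, and it was read over the members and the named genes of all lists. It held for 1 member, Lama4, with a knockout minus control difference of 0.13 (responses 0.04 and -0.09). Among the named matrix and receptor genes it held for Lama5 (difference 0.23), Smoc2 (-0.31), Sparcl1 (-0.47), Cd151 (-0.22), Sdc4 (0.30) and Plod3 (-0.36). Among the named genes of the cell type lists it held for Acta2 (-0.39), Cspg4 (-0.22), Tagln (0.41), Lum (-0.24), Dcn (0.42), Myl4 (-0.24), Myl7 (-0.11) and Sox10 (0.10). With the local background subtracted Lama4 was at -0.10 in knockout and -0.26 in control hearts, so its signs no longer differed. The same was so for Lama5, Smoc2, Sdc4 and Acta2, and the other genes kept opposite signs. Some responses, such as 0.04 for Lama4 in knockout hearts, were within the spot noise (SD of at most 0.088 on that array).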

How the results depend on the processing

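No paired analysis was possible because each genotype has 1 array and no test was run. For single members 9 alternatives gave 360 values, of which 298 stayed on the same side of 1.5-fold or within the spot noise. A further 43 moved beyond that noise, 14 passed 1.5-fold anew, 5 lost it and none of those past 1.5-fold changed sign. Part of the 298 was fixed beforehand. Every member was detected in all hearts, so leaving out the detection filter could change no value. The mean over probes could change Col15a1 only, as the other members had a single probe. The members' median on the knockout array (-0.47) was -0.22 with the local background subtracted, -0.72 with a normexp offset of 0 and -0.74 in the authors' deposited table. The control median (-0.19) was -0.065 with the local background subtracted, -0.27 with offset 0, -0.12 with median centring and -0.33 in the authors' deposited table. The median difference of responses (-0.19) was -0.29 with offset 0 and -0.29 in the authors' deposited table, and the knockout over control median under AL (0.27) was 0.60 with offset 0. Of members at least 1.5-fold lower, the 4 on the knockout array became 2 with median centring (0.651% of all genes) and 3 with loess by block (0.683%, Lamc1 lost). They became 3 with the local background subtracted (1.43%), 5 with offset 0 (3.49%) and 5 in the deposited table (6%). The 0 on the control array became 2 with offset 0 (2.45%) and 2 in the deposited table (4.54%). In the difference of responses 1 member (Lama2) was higher with offset 0 (3.32%) and 1 in the deposited table (5.97%). Between the genotypes under CR 2 members became higher with the local background subtracted (11.2% of all genes) and 2 with offset 0 (5.91%), and under AL the 3 higher became 5 with offset 0 (6.79%). The cause of these shifts was not tested. Over all genes the split of higher and lower calls depended on the scaling: under AL it was 332 and 227, or 225 and 408 with median scaling, and under CR 174 and 128, or 102 and 286. On the control array it was 104 and 43, or 210 and 25 with median centring, and for the difference of responses 46 and 61, or 34 and 94. Further counts of genes at least 1.5-fold higher and lower were 94 and 92 on the knockout array, against 250 and 174 with the local background subtracted, 384 and 424 with offset 0 and 953 and 729 in the deposited table. On the control array they were 128 and 162, 457 and 310, and 1113 and 575 in those settings. The knockout AL heart was the highest for 6 members in the main setting and in 5 alternatives, and for 7 with the local background subtracted. Signals near the blanks limit Col4a1, Col15a1, Hspg2, Lama2 and Lama4.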
